A study of Rattus norvegicus with 4 samples.

Results

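Fascia fibroblasts that carry RNA of both Myoc and Igfbp3 were set against the other stromal cells of the same tissue, and compared between rats with and without acupuncture. They numbered 1194 of 16825 stromal cells, with 465 and 373 in acupuncture replicates 1 and 2 and 164 and 192 in dysentery replicates 1 and 2. A UMI is a tag that marks 1 captured RNA molecule, and a cell was taken when it held at least 1 UMI of each gene. Stromal cells were those with at least 30 UMIs per 10000 from 6 genes together (Col1a1, Col1a2, Col3a1, Dcn, Mfap5 and Serpinf1) and no UMI of the leukocyte gene Ptprc or the endothelial gene Pecam1. They were drawn from 34904 cells with at least 300 genes and at most 20% mitochondrial UMIs, of 38282 deposited cells. The remaining 15631 stromal cells are called the other stromal cells here. The cells were thus chosen by their measured UMIs, and the values of Myoc, Igfbp3, the gate genes, Ptprc and Pecam1 are given as a description, with no test.

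The 4 libraries hold cells of the subcutaneous fascia at the abdominal midline, where the acupoints lie, from rats (Rattus norvegicus). Dysentery had been induced with Salmonella in the rats of both groups. By their titles, 2 libraries are of rats that then received acupuncture and 2 of rats with dysentery alone. The treatment field of all 4 libraries names the opposite group, while titles, descriptions and design text name the same group as each other. Every direction rests on the titles and would turn if that field were right. No healthy rat is among the libraries, and strain, age and sex are not given in the sources used here. Whether each replicate was another animal is not in the labels, and the p-values therefore rest on the spread between libraries alone, which may be technical.

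The libraries held 53066666 to 93897006 UMIs in 7965 to 11327 cells. Between 19 and 32 cell barcodes were shared by a pair of libraries and 0 among the double-positive cells. In the order used for every set of 4 values here (acupuncture 1, acupuncture 2, dysentery 1, dysentery 2), the median double-positive cell held 8278, 9957, 8195.5 and 6948.5 UMIs. The median other stromal cell held 7079, 9061, 6902 and 6759 UMIs. The double-positive cells were thus the deeper kind in all 4 libraries.

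Myoc encodes myocilin, a secreted glycoprotein best known from the trabecular meshwork of the eye, where its mutation causes glaucoma. Igfbp3 encodes the main carrier of insulin-like growth factors in blood, which binds these factors outside the cell and limits or prolongs their action. Fascia is a sheet of loose and dense connective tissue, and its fibroblasts fall into kinds with separate duties. Cells with Pi16 and Dpp4 lie around vessels and in the interstitium and are regarded as progenitors, cells with Col15a1 are known as makers of basement membrane, and cells with Cxcl12 as support for leukocytes. Prostaglandins are made from arachidonic acid that phospholipases such as Pla2g2a release, and Ptgs2 is the inducible enzyme of the next step.

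Most cells passed the rule with more than the least it asks. The median double-positive cell held 8, 11, 4 and 7 Myoc UMIs and 6, 5, 4 and 4 Igfbp3 UMIs. Cells with exactly 1 Myoc UMI made up 17.0, 13.9, 26.2 and 20.8% of them, and cells with exactly 1 Igfbp3 UMI 19.6, 18.2, 25.6 and 26.6%. Just inside the threshold, cells with 1 Myoc UMI stood at 1173 CPM of Pi16 and 286 CPM of Stmn2. CPM are counts per 1000000 summed UMIs, here the mean over the 4 libraries. Just outside it, cells with Igfbp3 and no Myoc UMI stood at 1899.9 and 195 CPM, and cells with Myoc and no Igfbp3 UMI at 2031 and 149.7 CPM. Cells with at least 10 UMIs of each gene had 362 CPM of Pi16 and 876 of Stmn2, and stromal cells with neither gene had 3423 and 10.5 CPM. The rule therefore cuts a graded range, and the cells just outside it lie between those just inside and those with neither gene in both values.

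The 2 genes were found in the same cells more often than the product of their shares. With every cell thinned at random to 2000 UMIs, 14.5, 12.7, 9.18 and 5.18% of stromal cells held a Myoc UMI and 18.1, 14.3, 15.1 and 7.16% an Igfbp3 UMI. Both were found in 7.202, 5.78, 3.42 and 1.71% of stromal cells, which is 2.74, 3.19, 2.47 and 4.62 times the product. Ptprc-positive cells below the UMI limit of the stromal gate, which should lack both genes, were counted after the same thinning to 2000 UMIs. Those with both numbered 1 of 2744, 0 of 4137, 1 of 2825 and 0 of 3087, or 0.0364, 0, 0.0354 and 0%. The counts of 0 allow up to 0.0725% and 0.0972%. Before thinning, these Ptprc-positive cells had median depths of 8428, 9829, 6856 and 7589 UMIs, against 7223, 9185, 6963 and 6769 in the stromal cells. The thinned shares of stromal cells with both genes, 7.202, 5.78, 3.42 and 1.71%, lay above this background in each library. The background cells were chosen for little stromal RNA, which can lower their share with both genes. The shares were thus not compared with Ptprc-positive cells in general. At full depth the share of stromal cells with both genes was 11.6, 10.1, 6.09 and 2.98%, and the background was not counted at that depth. A further 66, 47, 40 and 28 cells with both genes fell outside the stromal gate and were not counted.

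The double-positive cells carried fibroblast RNA that the rule had not asked for. Pdgfra, a growth factor receptor of mesenchymal cells, stood at 541, 479.7, 492 and 414 CPM against 426, 338, 382 and 328 in the other stromal cells. Lum, a collagen-binding proteoglycan, stood at 951, 798, 284 and 135 CPM against 493, 606, 91.3 and 50.6. Of the 12 pan-fibroblast markers, 6 of which the gate used, none was at 0. Markers of several other cell types summed to low values in the double-positive cells. Endothelial markers summed to 9.52 to 15.8 CPM, above the 2.63 to 6.09 CPM of the other stromal cells. T and NK cell markers summed to 0.686 to 8.08 CPM and mesothelial markers to 2.20 to 3.92 CPM. The gate had left out cells with Ptprc or Pecam1 UMIs, so low leukocyte and endothelial sums are partly set by that choice. Of the mesothelial markers Upk3b, Krt18, Lrrn4 and Wt1 were at 0, and of the adipocyte markers Adipoq, Plin1, Cidec and Lep. The adipocyte markers summed to 14.4, 5.36, 13.2 and 13.7 CPM, against 12.0, 8.73, 4.51 and 2.08 CPM in the other stromal cells. Plin4, the only adipocyte marker that could be tested between these kinds of cell, was called higher in the double-positive cells (log2 2.03). Macrophage markers were present at 404 to 898 CPM in sum, and neutrophil markers at 17.8 to 141 CPM. Pla2g2a, another gene by which these cells were labelled, was found in only 42.6, 28.4, 47.0 and 51.0% of the double-positive cells, so it does not mark all of them.

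Compared with the other stromal cells of the same library, the double-positive cells were low in markers of Pi16-positive fibroblasts (11 of 12 lower) and high in markers of Col15a1-positive and Cxcl12-positive fibroblasts (6 of 9 higher in each list). The gene lists were chosen with earlier results of these data known, so counts over them are not independent of the data. In edgeR's quasi-likelihood test with the library as a block and Benjamini-Hochberg adjustment, 1833 of 11731 genes passed an adjusted p of 0.05 (15.6%), 912 higher (7.77%) and 921 lower (7.85%). For log2 fold changes, the error is the standard error (SE) of the fit over 8 sums, 2 from each of 4 libraries. The median over all genes tested was -0.0045.

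**Figure D1:**
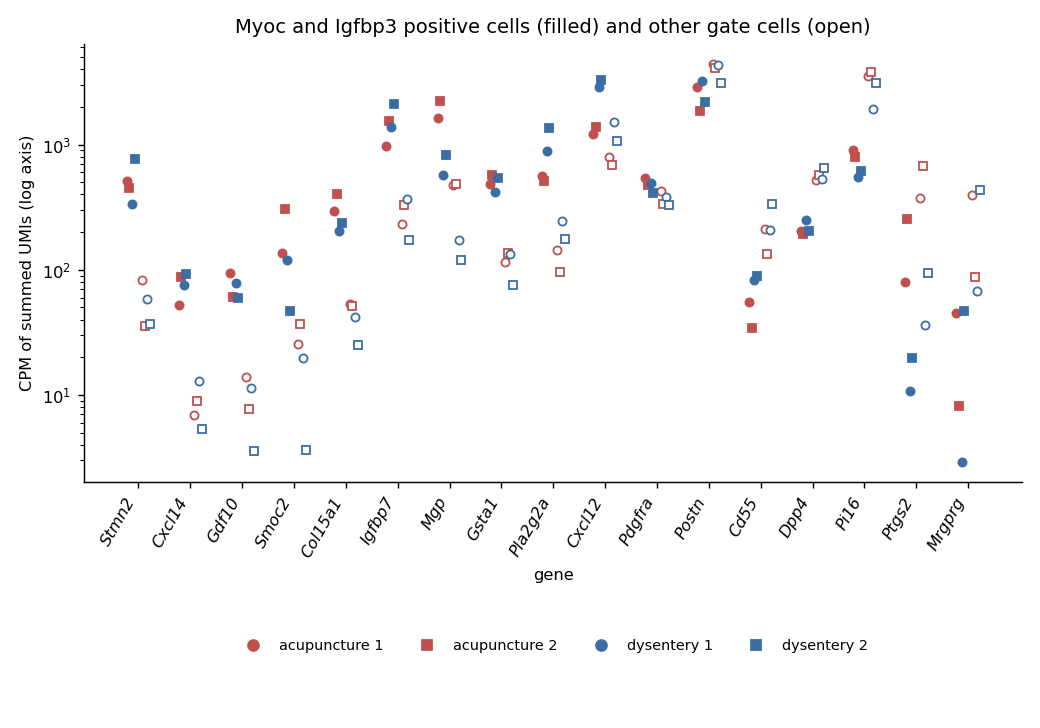
CPM of summed UMIs per library (log axis, TMM-scaled) for genes named in the text, with filled points for Myoc and Igfbp3 positive cells and open points for the other stromal gate cells. Red marks acupuncture and blue dysentery libraries, circles replicate 1 and squares replicate 2. Stmn2, Cxcl14, Gdf10, Smoc2 and Col15a1 lay higher in the positive cells in all 4 libraries, and Pi16, Dpp4, Cd55 and Mrgprg lower.

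Among genes with at least 50 CPM in either kind of cell, the strongest rise was in Stmn2, a protein that destabilises microtubules and is best known from growing axons. It stood at 514, 448, 335 and 775 CPM in the double-positive cells and 82.7, 35.7, 58.0 and 37.0 CPM in the others (log2 3.30 ± 0.26, adjusted p = 1.35e-05). The lowest double-positive sum exceeded the highest of the other sums. Cxcl14, a chemokine made by resting skin and stroma, stood at 52.4, 87.8, 75.2 and 92.2 against 6.95, 8.94, 13.01 and 5.39 CPM (log2 3.21 ± 0.20, adjusted p = 2.24e-06). Gdf10, a secreted member of the TGF-beta superfamily, stood at 94.4, 60.7, 78.1 and 59.1 against 13.9, 7.69, 11.4 and 3.57 CPM (log2 3.06 ± 0.17, adjusted p = 1.64e-06). For both genes, too, the kinds did not overlap. Cck encodes the peptide cholecystokinin, known from gut and brain. Its 24.6, 27.4, 129 and 196 CPM exceeded the 1.94, 7.95, 21.1 and 10.2 CPM of the other cells within each library (log2 3.09 ± 0.33, adjusted p = 7.78e-05), and its level in the double-positive cells was higher in the dysentery libraries.

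Several markers of Col15a1 fibroblasts encode basement membrane proteins. Of the 9 tested members of that list, 6 were higher and 1 lower, with a median log2 fold change of 1.76. Col15a1, a collagen of the basement membrane zone, stood at 296, 401, 202 and 235 CPM against 53.5, 51.1, 42.3 and 25.1 (log2 2.74 ± 0.14, adjusted p = 1.03e-06). Smoc2, a calcium-binding matrix protein of basement membranes, stood at 137, 309, 119 and 47.2 against 25.4, 37.0, 19.6 and 3.62 CPM (log2 2.85 ± 0.15, adjusted p = 1.19e-06). Col4a1, a chain of the collagen network of basement membranes, stood at 262, 421, 359 and 446 against 79.4, 112, 137 and 111 CPM (log2 1.76 ± 0.095, adjusted p = 1.19e-06). Meox2, a homeobox transcription factor, had a log2 fold change of 1.89, and Lpl, the lipoprotein lipase, was the member that was lower (log2 -0.43). Outside the list, Nid2, which links laminin to collagen networks, was higher by 2.69 and Spon1, a matrix protein of the nervous system, by 2.66. All 4 libraries showed these directions.

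Of 17 collagen genes tested that the gate did not use, 13 were higher and 1 lower, with a median of 0.56. Col6a1, a chain of the microfibrillar collagen around cells, stood at 1477, 1558, 1243 and 1317 CPM against 996, 1003, 946 and 855 (log2 0.56). The collagen that was lower was Col14a1 (log2 -0.37), which binds the surface of fibrils. Without Smoc2-positive cells 8 collagens were higher. In the list of proteoglycans, elastic fibre genes and glycoproteins, 8 of 29 members were higher and 11 lower, with a median of -0.023. Mgp, an inhibitor of calcification, stood at 1647, 2216, 571 and 829 CPM against 475, 488, 173 and 120.4 (log2 2.12 ± 0.15, adjusted p = 5.2e-06), and Bgn, a small proteoglycan, was higher by 1.75. Has1, a hyaluronan synthase, was lower (log2 -1.35), as was the matricellular protein Postn (log2 -0.67). Thbs1, an adhesive glycoprotein, was also higher (log2 1.31), but did not pass (log2 0.0098, adjusted p = 0.997) without Smoc2-positive cells. Of 23 matrix proteases and inhibitors, 6 were higher and 6 lower, with 2 higher and 6 lower without Smoc2-positive cells. Serpine2, an inhibitor of thrombin and plasminogen activators, rose most of them (log2 3.37, from 34.0, 48.4, 10.1 and 2.82 CPM in the double-positive against 3.10, 3.14, 1.29 and 1.32 CPM in the other cells). Timp4, an inhibitor of metalloproteinases, fell most (log2 -2.13). Mmp11, a stromal metalloproteinase, was higher by 2.36, and by 1.72 without dysentery replicate 2.

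Genes of the Pi16 adventitial fibroblast list were lower in 11 of 12 members, with a median log2 fold change of -1.62. Pi16, a secreted peptidase inhibitor that names these progenitor-like cells, stood at 904, 794, 547 and 619 CPM against 3527, 3824, 1932 and 3139 (log2 -2.10 ± 0.092, adjusted p = 5.22e-07). Dpp4, a surface peptidase, stood at 203, 194, 252 and 203 against 526, 577, 533 and 651 CPM (log2 -1.43 ± 0.094, adjusted p = 3.66e-06), and Cd55, which shields cells from complement, at 55.6, 34.0, 83.1 and 88.7 against 211, 135, 208 and 338 CPM (log2 -1.80 ± 0.10, adjusted p = 1.85e-06). In no library did the double-positive cells reach the other cells for these genes. Anxa3, an annexin (log2 -2.13), the ligand Wnt2 (log2 -2.11) and Efhd1, a calcium-binding protein (log2 -2.09), were lower as well. The member that was higher was Tppp3 (log2 0.30, adjusted p = 0.0463), which binds tubulin, and 0 were higher when acupuncture 1, acupuncture 2 or dysentery 2 was left out. With all cells thinned to 2000 UMIs before the rule was applied, the log2 change of Pi16 was -3.12, that of Wnt2 -3.71 and that of Cd55 -2.69.

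Beyond that list, Mrgprg, a receptor of the Mas-related family, stood at 44.8, 8.19, 2.89 and 47.2 CPM against 394, 88.2, 67.6 and 433 (log2 -3.28 ± 0.12, adjusted p = 1.33e-07). Bmp7, a bone morphogenetic protein (log2 -2.95), Daglb, which makes an endocannabinoid (log2 -2.37), and Gap43, a growth cone protein (log2 -2.20), were lower too. Cd34, a surface glycoprotein of progenitors and telocytes, stood at 59.9, 49.1, 43.4 and 31.7 CPM against 89.2, 79.9, 70.0 and 73.9 (log2 -0.74 ± 0.10, adjusted p = 0.000331), while Pdgfra was higher (log2 0.39 ± 0.064, adjusted p = 0.00157). Of 7 members of the telocyte and progenitor surface list, 2 were higher and 2 lower. The other large falls were in genes best known from other cell types. They were Hbb-b1 (log2 -4.00) and Hba-a2 (log2 -2.84), which encode haemoglobin, the milk protein genes Csn3 (log2 -3.72) and Csn1s1 (log2 -3.68), and Fabp4 (log2 -3.32), a fatty acid carrier of adipocytes and capillaries. Summed red blood cell genes were 14.9 to 61.1 CPM in the double-positive cells and 75.0 to 815 CPM in the others. With likely doublets removed, the log2 change was -1.03 for Hbb-b1 and -0.80 for Hba-a2. Without acupuncture replicate 1 it was -2.13 for Csn3 and -2.21 for Csn1s1, and without acupuncture replicate 2 -1.69 for Hba-a2 and -3.32 for Hbb-b1. Without dysentery replicate 1 it was -4.32 for Csn3 and -4.51 for Csn1s1, and without dysentery replicate 2 -3.62 for Hba-a2. Fabp4 fell by 1.26 with the gate at 60 UMIs per 10000. In DESeq2 Hba-a2 did not pass (log2 -2.27, adjusted p = 0.0551). After thinning to 2000 UMIs the changes were smaller for Csn3 (log2 -2.53, adjusted p = 7.33e-06), Csn1s1 (log2 -2.11, adjusted p = 8.9e-05) and Fabp4 (log2 -2.19, adjusted p = 8.09e-06). In the neutrophil list 2 of 4 members were lower, S100a8 (log2 -1.68) and S100a9 (log2 -1.57), and neither call held without cells carrying macrophage RNA (log2 -0.25, adjusted p = 0.546, and log2 -0.28, adjusted p = 0.367).

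Among chemokines, the double-positive cells held more Cxcl12, which retains leukocytes and stem cells, with 1211, 1373, 2872 and 3271 CPM against 793, 692, 1527 and 1068 (log2 1.03 ± 0.13, adjusted p = 0.000261). Cxcl13, which attracts B cells, stood at 234, 201, 1062 and 2009 against 69.6, 68.1, 626 and 381 CPM (log2 1.62 ± 0.20, adjusted p = 0.000218). Cxcl9, an interferon-induced attractant of T cells, was higher (log2 1.60), but did not pass (log2 0.34, adjusted p = 0.404) without Smoc2-positive cells. Cxcl1, which attracts neutrophils, was lower (log2 -0.99), as was the cytokine Il6 (log2 -0.78). Over the whole list of cytokines and chemokines, 5 of 23 were higher and 6 lower, with 2 lower without acupuncture replicate 1 and 5 without dysentery replicate 1. In the Cxcl12 reticular list, 6 of 9 members were higher and 1 lower, with a median of 1.03. They included Vcam1, which holds leukocytes (79.0, 103, 97.6 and 66.2 against 26.8, 38.7, 28.0 and 18.8 CPM, log2 1.62 ± 0.087, adjusted p = 1.19e-06), and Fmo2, a flavin monooxygenase (log2 2.63). Rspo3, an enhancer of Wnt signalling, was the member that was lower (log2 -1.15).

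The IGF, TGF-beta and BMP, Wnt and axon guidance lists each held more higher than lower calls. In the IGF axis 8 of 13 members were higher and 2 lower, with a median of 0.49 and with Igfbp3 itself left out (5 higher without acupuncture replicate 2). Igfbp7, a matrix-bound relative of the binding proteins, stood at 969, 1546, 1382 and 2105 CPM against 233, 333, 365 and 174 (log2 2.44 ± 0.23, adjusted p = 3.67e-05). The growth factor Igf1 stood at 375, 461, 742 and 665 against 189.6, 234, 389.9 and 196 CPM (log2 1.16 ± 0.12, adjusted p = 8.31e-05). Igfbp5 (log2 -0.50) and Igfbp6 (log2 -0.29), which bind the same factors, were lower, and Stc2, a blocker of the protease that cleaves binding proteins, was higher by 2.84. In TGF-beta and BMP signalling 14 of 27 members were higher and 3 lower, with a median of 0.42. Id1, a target of BMP signals, stood at 158, 139, 109.9 and 92.9 against 29.0, 28.4, 17.8 and 9.51 CPM (log2 2.60 ± 0.13, adjusted p = 1.03e-06). In Wnt signalling 9 of 20 were higher and 5 lower. The secreted Wnt antagonists Sfrp1 (log2 1.83) and Sfrp2 (log2 2.29) and the receptor Fzd7 (log2 1.84) were higher, and the ligands Wnt2, Wnt10b (log2 -2.18) and Wnt11 (log2 -1.04) lower. Axon guidance and neurotrophic cues were higher in 12 of 21 members and lower in 4, with a median of 0.96. They included the repellent Slit3 (log2 1.60) and the receptor Nrp2 (log2 2.07). Of the family of Myoc, genes with an olfactomedin domain, 6 others were tested, of which 0 were higher and 1, Olfml2a, was lower (log2 -2.54).

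Prostaglandin genes went both ways, with 3 of 11 members of the list higher and 3 lower. Pla2g2a, a secreted phospholipase, stood at 563, 511, 883 and 1368 CPM against 145, 96.6, 244 and 178 (log2 2.29 ± 0.15, adjusted p = 3.92e-06), and Pla2g5, a relative, was higher by 1.87. Pla2g2a is among the genes by which these cells were labelled, so its rise is not independent of that choice. Ptgs2 stood at 80.4, 254, 10.8 and 19.7 against 372, 679.5, 36.2 and 94.1 CPM (log2 -1.85 ± 0.14, adjusted p = 8.39e-06), and its constitutive relative Ptgs1 was lower as well (log2 -2.48). In cells thinned to 2000 UMIs, 5.20, 14.9, 3.41 and 2.80% of double-positive cells and 16.6, 27.9, 4.95 and 12.9% of the others held a Ptgs2 UMI. The title of the study asks about Ptgs2-positive telocytes, interstitial cells commonly known by Cd34 and Pdgfra. Thinned cells with all 3 genes numbered 0 of 269, 0 of 202, 0 of 88 and 0 of 107 double-positive cells, which allows a share of up to 1.12, 1.49, 3.41 and 2.80%. Among the other stromal cells they numbered 47, 63, 5 and 41, or 1.36, 1.91, 0.201 and 0.669%. In acupuncture replicates 1 and 2 the share in the other cells lay above what the 0 allows, and in the dysentery libraries a difference was not detectable at this depth. These limits cover counting error alone, the shares in the other cells have counting error too, and the difference was not tested over libraries.

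In antioxidant and detoxification genes 7 of 25 were higher and 4 lower. Gsta1, a glutathione transferase, stood at 484, 575, 419 and 545 CPM against 115, 137, 133 and 75.8 (log2 2.16 ± 0.15, adjusted p = 4.98e-06), and Cyp1b1, a cytochrome linked like Myoc to glaucoma, at 54.0, 61.7, 86.0 and 97.1 against 11.9, 11.6, 21.98 and 11.2 CPM (log2 2.41 ± 0.15, adjusted p = 3.17e-06). Complement genes were higher in 6 of 14 members and lower in 1. C6, a part of the membrane attack complex, stood at 629, 151, 182 and 205 against 152, 25.2, 41.3 and 17.6 CPM (log2 2.54 ± 0.20, adjusted p = 1.06e-05), C3, the central component, was higher by 1.52 and the chaperone Clu by 1.99. In the glucocorticoid list 3 of 18 members were higher and 0 lower, among them Hsd11b1, which makes active glucocorticoid (log2 1.20, and 0.59 without Smoc2-positive cells). Immediate early genes, which cells switch on within minutes of a stimulus, were lower in 9 of 25 members and higher in 1, with a median of -0.28. Without acupuncture replicate 1, 3 were lower and 4 higher, and 5 and 6 were lower without dysentery replicates 1 and 2. The transcription factors Klf4 (log2 -0.66) and Klf2 (log2 -0.71) were among the lower ones. For NF-kB response genes 1 of 19 was higher and 3 lower, and for heat shock chaperones 1 of 17 higher and 4 lower (1 without acupuncture replicate 1). Adipogenic genes were higher in 4 of 18 and lower in 4, and ribosomal proteins higher in 0 and lower in 1 of 23.

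Nerve sheath fibroblast markers were higher in 5 of 8 members and lower in 1. They included Abca8a, a lipid transporter (170.2, 463, 225 and 139 against 41.6, 58.6, 50.4 and 19.2 CPM, log2 2.51 ± 0.15, adjusted p = 2.24e-06) and Sox9, a transcription factor of cartilage and glia (log2 2.59). Without Smoc2-positive cells the rise of Abca8a was 1.61. Another, Apod, a lipid carrier, rested on single cells, as given for the group comparison. It stood at 4.82, 11.01, 285 and 278 CPM (log2 1.501 ± 0.28, adjusted p = 0.00363) and at log2 -1.11, adjusted p = 0.142 with the highest cell of each library left out. Matrix fibroblast markers were higher in 2 of 10 and lower in 3, and both tendon markers tested, Comp (log2 2.49) and Thbs4 (log2 1.10), were higher. Thbs4 did not pass without acupuncture replicate 2 (log2 1.12, adjusted p = 0.0745), without Smoc2-positive cells (log2 0.98, adjusted p = 0.0839) or after thinning to 2000 UMIs (log2 0.27, adjusted p = 0.739). Of 12 macrophage markers 0 were higher and 0 lower in edgeR, and 0 and 0 in DESeq2, with 0 at an unadjusted p under 0.05. Over all 11731 genes tested in edgeR, 3095 had an unadjusted p under 0.05.

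By the share of cells with a UMI after thinning to 2000 UMIs, the genes most like the rule were Igfbp7, Gas6, Gsta1, Stmn2, Mgp, Bgn, Rpgr, Tgfbi, Col15a1 and Sfrp1. This order goes by the mean difference in share over 4 libraries. Igfbp7 was found in 71.0, 82.7, 85.2 and 85.0% of double-positive and 18.2, 19.6, 23.4 and 8.85% of other stromal cells. Stmn2 was found in 49.1, 46.5, 45.5 and 43.9% against 7.21, 5.16, 4.91 and 3.11%, and Gas6, a ligand of receptors that clear dying cells, in 69.1, 77.7, 75.0 and 76.6% against 28.3, 29.3, 33.2 and 25.1%. Of these 3, Stmn2 was the rarest outside the double-positive cells and Igfbp7 the commonest within them.

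The double-positive cells were not uniform. Smoc2 and Pla2g2a were 2 of the genes that were higher in them, and in the acupuncture libraries they were found mostly in different cells. These genes were chosen after their values were seen, so the values that follow carry no test. In thinned double-positive cells, 16.7, 28.2, 7.95 and 4.67% held a Smoc2 UMI and 33.5, 22.8, 36.4 and 44.9% a Pla2g2a UMI. Both were found in 5, 3, 2 and 2 cells, where the product of the shares gives 15.1, 12.98, 2.55 and 2.24. In the acupuncture libraries the number with both was below the product, and in the dysentery libraries it was close to the product. The 95% Clopper-Pearson intervals of the Smoc2 share were 12.5 to 21.7% and 22.1 to 35.0% with acupuncture and 3.26 to 15.7% and 1.53 to 10.6% without. Intervals of this kind cover counting error only. Both acupuncture values lay above both dysentery values for Smoc2 and below them for Pla2g2a. The intervals of the Pla2g2a share overlapped between the groups, at 27.8 to 39.4, 17.2 to 29.2, 26.4 to 47.3 and 35.2 to 54.8%. In the other stromal cells the Smoc2 shares of 3.12, 5.47, 2.21 and 0.554% had the same order of groups. Their Pla2g2a shares of 10.4, 5.22, 12.9 and 8.38% overlapped between the groups.

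**Figure D2:**
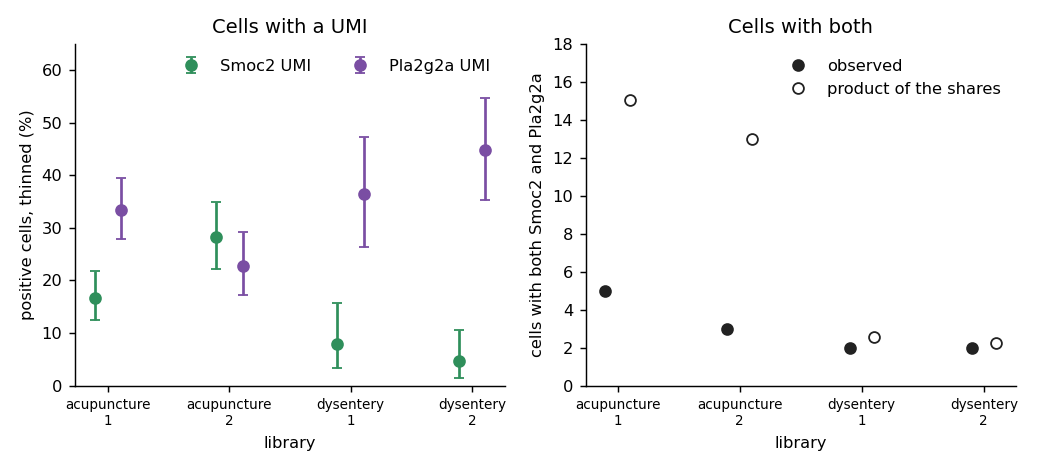
Left, the percent of Myoc and Igfbp3 positive cells, thinned to 2000 UMIs, that held a Smoc2 (green) or a Pla2g2a (purple) UMI in each library, with 95% Clopper-Pearson intervals. Right, the number of cells with both (filled) beside the number that the product of the 2 shares gives (open), with 5 against 15.1 and 3 against 12.98 in the acupuncture libraries.

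At full depth, cells with Smoc2 and no Pla2g2a UMI numbered 89, 133, 15 and 12, and cells with Pla2g2a and no Smoc2 UMI 168, 72, 72 and 90. Cells with both numbered 30, 34, 5 and 8. Cells with neither numbered 178, 134, 72 and 82, or 38.3, 35.9, 43.9 and 42.7% of the double-positive cells. The comparison that follows leaves out the cells with both and the cells with neither. The Smoc2 cells held Col15a1 at 865, 894, 771 and 536 CPM, against 180.0, 181, 119 and 221 CPM in the Pla2g2a cells. Col4a1 stood at 738, 839.8, 1556 and 1404 against 165, 255, 217 and 355 CPM, and Nid2 at 210.2, 339.6, 119 and 68.3 against 52.3, 62.2, 34.4 and 28.8 CPM. Abca8a stood at 671, 1232, 1052 and 653 against 46.4, 73.0, 113 and 93.2 CPM. For these 4 genes the Smoc2 cells were higher in every library and the ranges did not overlap. The Pla2g2a cells held more Cxcl12, with 1534, 2132, 3309.8 and 3644 against 759, 457, 882 and 1092 CPM, and more Cck, with 41.9, 81.1, 177 and 301 against 11.4, 0.792, 0 and 39.0 CPM. Cxcl13 was 341, 243, 1389 and 2083 CPM in the Pla2g2a cells and 110.2, 74.4, 511 and 614 CPM in the Smoc2 cells. Myoc itself was similar, at 1591, 1855, 1223 and 2165 and 2077, 1742, 1308 and 1819 CPM. Stmn2 was high in both kinds, at 755, 575, 889 and 1199.6 CPM with Smoc2 and 453, 354, 189 and 644 CPM with Pla2g2a. Within the double-positive cells, the basement membrane genes named here were thus higher in the cells with Smoc2, and the chemokines Cxcl12 and Cxcl13 in the cells with Pla2g2a. The Smoc2 cells of the dysentery libraries are few, and their sums rest on 15 and 12 cells.

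Double-positive cells made up a larger share of stromal cells in both acupuncture libraries. At full depth the share was 11.6, 10.1, 6.09 and 2.98%. After thinning to 2000 UMIs it was 7.202, 5.78, 3.42 and 1.71%, a mean of 6.49% ± 1.00 in the acupuncture and 2.57% ± 1.21 in the dysentery libraries (SD, n = 2 each). They differed by 3.92 percentage points (6.33 at full depth), with p = 0.333 in a two-sided exact permutation test, which is the smallest p that 2 against 2 libraries allow. The groups did not overlap, and the gap between the dysentery libraries was somewhat smaller than that between dysentery 1 and acupuncture 2. Thinning left out 516, 454, 381 and 548 shallower stromal cells. A share of captured cells does not count cells in tissue.

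**Figure D3:**
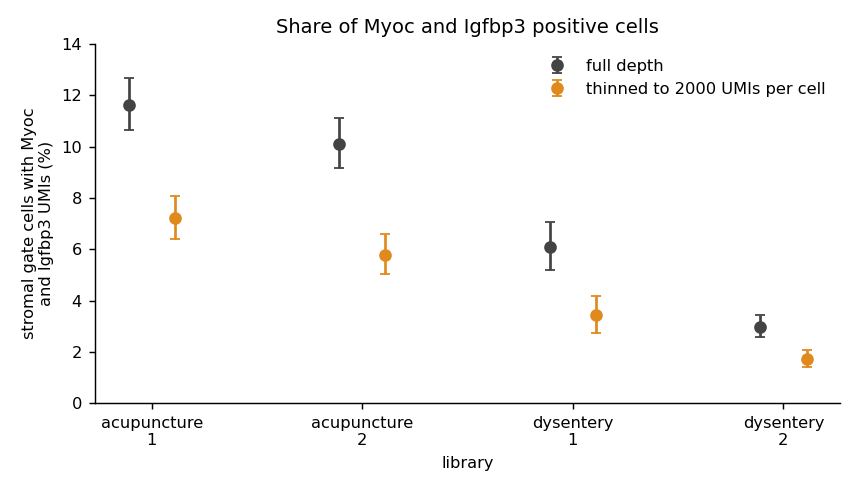
Percent of stromal gate cells with both Myoc and Igfbp3 UMIs in each library, at full depth (grey) and with each cell thinned to 2000 UMIs (orange), with 95% Clopper-Pearson intervals. Both acupuncture libraries lay above both dysentery libraries, from 11.6% to 2.98% at full depth and from 7.202% to 1.71% after thinning.

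Within the double-positive cells, acupuncture libraries were higher in Il6 and Cxcl1 and in 15 of 24 immediate early genes, and lower in the chemokines Cxcl12 and Cxcl13 and the peptide gene Cck. Of 9866 genes tested, 295 passed (2.99%), 169 higher (1.71%) and 126 lower (1.28%), in edgeR's quasi-likelihood test over the 4 sums. For 24.5% of the genes both acupuncture values exceeded both dysentery values, and for 23.3% both were below. The median log2 fold change of all genes was 0.0001. The sums alone do not tell a change in the share of cells with a gene from a change in RNA per cell. At full depth, Atf3 UMIs were found in 154 of 465, 240 of 373, 30 of 164 and 20 of 192 double-positive cells. Cxcl13 UMIs were found in 157, 113, 125 and 165 of them. For both genes the share of cells thus moved with the group, but such shares also move with depth and were not tested.

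Il6, a cytokine that drives acute phase responses, stood at 53.7 and 114 CPM in the acupuncture libraries and at 1.47 and 0 CPM in the dysentery libraries. The double-positive cells held 664 Il6 UMIs with acupuncture and 2 without, a ratio of 117 with a 95% counting interval of 32.3 to 970.0 (edgeR adjusted p = 0.00111). Both dysentery UMIs lay in replicate 1. Cxcl1 stood at 515 and 1939 CPM with acupuncture and 9.56 and 25.6 without (log2 6.11 ± 0.65, adjusted p = 0.00109). For both genes acupuncture replicate 2 was the higher of its group. The log2 fold change of Cxcl1 was 4.86 without that replicate, 6.999 when dysentery replicate 2 was left out, and 6.77 without acupuncture replicate 1. Ptx3, a soluble pattern recognition protein, stood at 39.2 and 61.1 against 4.41 and 2.14 CPM (log2 3.92 ± 0.40, adjusted p = 0.00102), and 4.52 without dysentery replicate 1. Over the list of cytokines and chemokines 6 of 22 members were higher and 4 lower, with a median of 0.73. The other risers were Cxcl2, Cxcl3, with 47 UMIs against 0, and Il10, with 111 UMIs against 2 (ratio 19.6, 95% counting interval 5.30 to 164). Only 19 and 24 cells of acupuncture replicates 1 and 2 held Il10, with 21 of 55 and 11 of 56 UMIs in 1 cell. Of the Cxcl3 UMIs, 17 of 18 lay in 1 cell in acupuncture replicate 1 and 9 of 29 in 1 cell in acupuncture replicate 2, so the count rested on few cells. Cxcl3 did not pass without dysentery replicate 1 (adjusted p = 0.153) or 2 (adjusted p = 0.2).

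Of 24 immediate early genes 15 were higher and 0 lower, with a median of 1.76. Without dysentery replicates 1 and 2 in turn, 7 and 8 were higher. Atf3, a stress-induced transcription factor, stood at 446 and 991 CPM with acupuncture and 27.2 and 19.9 without (log2 4.93 ± 0.38, adjusted p = 0.000226). Jun, a subunit of the AP-1 factor, stood at 2266 and 4464 against 405 and 443 CPM (log2 2.99 ± 0.27, adjusted p = 0.000534). Egr1, an early growth response factor, stood at 1219.9 and 2463 against 223 and 293 CPM (log2 2.84 ± 0.29, adjusted p = 0.00103), Fosb at 730.1 and 1959.5 against 143 and 232 CPM (log2 2.84 ± 0.40, adjusted p = 0.00478) and the antiproliferative gene Btg2 at 480.0 and 981 against 113 and 100.4 CPM (log2 2.77 ± 0.29, adjusted p = 0.00109). In each case the groups were apart and acupuncture replicate 2 was the highest library. Without it the changes were 4.24 for Atf3, 2.24 for Egr1, 1.96 for Fosb and 2.17 for Btg2. Egr2 was higher by 2.85, and by 2.23 without acupuncture replicate 2, a call lost without dysentery replicate 1 (log2 2.80, adjusted p = 0.06) or 2 (log2 2.91, adjusted p = 0.0802).

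Of 19 NF-kB response genes 5 were higher and 0 lower, with a median of 0.25, and 1 without either dysentery replicate. Nfkbiz, a nuclear regulator of NF-kB, stood at 90.1 and 155 CPM against 4.41 and 4.27 (log2 4.80 ± 0.38, adjusted p = 0.00025). Nfkbia, the inhibitor that NF-kB itself induces, stood at 331 and 731 against 152 and 195 CPM (log2 1.61 ± 0.31, adjusted p = 0.0218), and without dysentery replicate 1 or 2 it did not pass (log2 1.44, adjusted p = 0.152, and log2 1.81, adjusted p = 0.11). Without acupuncture replicate 2 its log2 fold change was 0.93. Of 16 heat shock chaperones 6 were higher and 0 lower, with a median of 0.68, and 1 and 0 without dysentery replicates 1 and 2. Hsp90aa1 stood at 623 and 972 against 356 and 355 CPM (log2 1.16 ± 0.20, adjusted p = 0.0119), and it did not pass without dysentery replicate 1 (log2 1.16, adjusted p = 0.0832) or 2 (log2 1.16, adjusted p = 0.112). In the glucocorticoid list 2 of 16 were higher and 1 lower, among them Fkbp5, a target of the receptor, at 54.9 and 36.5 against 9.56 and 12.1 CPM (log2 2.07 ± 0.29, adjusted p = 0.00478). After thinning to 2000 UMIs Fkbp5 did not pass (log2 1.90, adjusted p = 0.197).

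**Figure D4:**
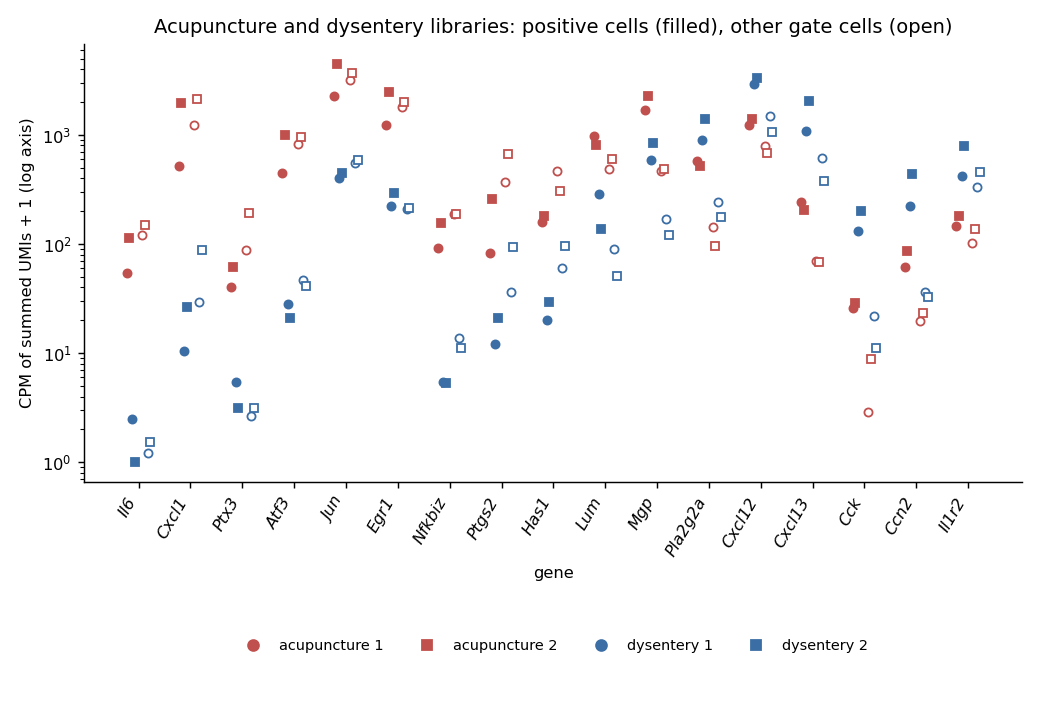
CPM of summed UMIs plus 1 (log axis, TMM-scaled) for named genes, with filled points for Myoc and Igfbp3 positive cells and open points for the other stromal gate cells of the same library. Red marks acupuncture and blue dysentery libraries, circles replicate 1 and squares replicate 2. From Il6 to Mgp the red filled points lay above the blue ones, and from Pla2g2a to Il1r2 below.

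Of the 15 genes with the largest rises, 13 have an entry in the RefSeq table of promoters, which covers 250 bases before to 50 after the start of each gene. The NF-kB motif, which is GGG, 2 bases of any kind and TTTCC, was searched on both strands and found in 4 of them (Il6, Cxcl1, Nfkbiz and Cxcl2), and in 1.53% of 33469 promoters. They are shown because they belong to the genes that led the rise. Coordinates are those of build GRCr8, not the build mRatBN7.2 of the submitters' processing notes. The 250 bases before each start are printed, which are chr4:5894576-5894825 for Il6, chr14:17479322-17479571 for Cxcl1, chr11:58251471-58251720 for Nfkbiz and chr14:17467256-17467505 for Cxcl2. Nfkbiz lies on the forward and the others on the reverse strand. Each runs 5′ to 3′ on the strand of the gene, with matches to the motif on either strand in capitals.
Il6: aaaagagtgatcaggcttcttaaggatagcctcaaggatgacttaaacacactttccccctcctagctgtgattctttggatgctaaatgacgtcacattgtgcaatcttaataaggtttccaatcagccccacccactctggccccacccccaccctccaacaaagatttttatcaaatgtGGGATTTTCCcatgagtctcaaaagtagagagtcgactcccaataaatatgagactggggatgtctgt
Cxcl1: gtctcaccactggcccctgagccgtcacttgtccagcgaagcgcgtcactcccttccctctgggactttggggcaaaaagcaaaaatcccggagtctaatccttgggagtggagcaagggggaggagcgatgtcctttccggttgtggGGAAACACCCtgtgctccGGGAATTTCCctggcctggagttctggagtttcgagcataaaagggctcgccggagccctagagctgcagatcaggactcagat
Nfkbiz: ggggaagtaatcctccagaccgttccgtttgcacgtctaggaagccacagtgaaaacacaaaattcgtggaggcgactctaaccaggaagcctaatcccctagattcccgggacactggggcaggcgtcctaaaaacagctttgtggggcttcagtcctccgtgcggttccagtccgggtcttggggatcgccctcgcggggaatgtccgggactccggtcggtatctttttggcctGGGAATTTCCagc
Cxcl2: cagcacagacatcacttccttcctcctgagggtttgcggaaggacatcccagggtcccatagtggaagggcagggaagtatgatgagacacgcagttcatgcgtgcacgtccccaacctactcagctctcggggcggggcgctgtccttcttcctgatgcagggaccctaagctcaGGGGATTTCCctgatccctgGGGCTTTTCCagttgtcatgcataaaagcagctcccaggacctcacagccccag
The match began 68 bases before the start in Il6, 102 and 84 bases in Cxcl1, 13 bases in Nfkbiz and 74 and 54 bases in Cxcl2. The letters TGACGTCA of cyclic AMP response elements were found in Il6, Has1 and Btg2, and in 1.829% of all promoters. For the serum response element, only a single fixed spelling without variable bases was searched. It was found in Egr1, and in 0.033% of all promoters. Other spellings of this element were not searched, so these values do not count all such elements. The AP-1 letters TGANTCA were found in 0 of the 13, and in 7.329% of all promoters. A match of letters is a description and does not show that a factor bound there.

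Ptgs2, whose product makes prostaglandin H2, stood at 82.1 and 259 CPM in the double-positive cells of the acupuncture libraries and 11.03 and 19.9 in those of the dysentery libraries. The groups did not overlap, and the rise passed (log2 3.45 ± 0.55, adjusted p = 0.00896). It did not pass without dysentery replicate 1 (log2 3.09, adjusted p = 0.0704) or 2 (log2 3.94, adjusted p = 0.0637), and it was 4.06 and 2.40 without acupuncture replicates 1 and 2. Pla2g2a, one step earlier in the pathway, went the other way, at 575 and 521 against 899 and 1385 CPM (log2 -1.06 ± 0.19, adjusted p = 0.0168), and did not pass without dysentery replicate 2 (log2 -0.71, adjusted p = 0.133) or without Smoc2-positive cells (log2 -0.67, adjusted p = 0.0513). It did not pass either after thinning to 2000 UMIs (log2 -0.64, adjusted p = 0.246), with at least 2 UMIs of each rule gene (log2 -0.92, adjusted p = 0.0726) or with doublets removed (log2 -1.07, adjusted p = 0.052). These were the called members among 8 of the prostaglandin list. In the other stromal cells Ptgs2 stood at 367 and 672 against 35.5 and 92.8 CPM (log2 3.01 ± 0.53, adjusted p = 0.0615). The difference between the kinds in this contrast was not called (interaction log2 0.30 ± 0.35, adjusted p = 0.954), and its sign turned in alternatives given under the dependence on processing.

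Matrix genes were higher with acupuncture in 6 of 28 members of the proteoglycan and elastic fibre list and lower in 0, with a median of 0.32. Leaving out acupuncture 1, acupuncture 2, dysentery 1 and dysentery 2 gave 12, 11, 7 and 3 higher. Has1 stood at 159 and 180.1 CPM against 19.1 and 28.5 (log2 2.83 ± 0.20, adjusted p = 0.000147), Lum at 971 and 813 against 289 and 137 (log2 2.07 ± 0.28, adjusted p = 0.00399) and Mgp at 1682 and 2259 against 581 and 839 (log2 1.47 ± 0.20, adjusted p = 0.00399). After thinning to 2000 UMIs Has1 did not pass (log2 2.57, adjusted p = 0.0616). Without dysentery replicate 1 the change of Lum was 2.70. Eln, the elastin gene, was higher by 1.16, which did not pass without dysentery replicate 2 (log2 0.77, adjusted p = 0.13) or without Smoc2-positive cells (log2 0.95, adjusted p = 0.106). With doublets removed it did not pass either (log2 1.13, adjusted p = 0.0571), and after thinning little of it was left (log2 0.31, adjusted p = 0.84). Of 15 collagens 2 were higher, Col6a3 (log2 0.57) and Col6a6 (log2 0.96), both chains of microfibrillar collagen, and neither passed without dysentery replicate 1 (log2 0.62, adjusted p = 0.161, and log2 1.03, adjusted p = 0.109) or 2 (log2 0.53, adjusted p = 0.289, and log2 0.89, adjusted p = 0.201). Among 23 proteases and inhibitors 3 were higher and 2 lower. Plau, the urokinase type plasminogen activator, stood at 263 and 563 against 105 and 85.5 CPM (log2 2.11 ± 0.31, adjusted p = 0.00566). Without dysentery replicate 2 it did not pass (log2 1.97, adjusted p = 0.0776), and without Smoc2-positive cells the rise of Plau was 1.22. It was 1.47 without acupuncture replicate 2. Msx1, a homeobox gene, stood at 97.1 and 90.0 against 19.9 and 8.55 CPM (log2 2.72 ± 0.26, adjusted p = 0.000685), and was 3.44 without dysentery replicate 1.

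The genes that fell included chemokines that the double-positive cells hold at high level. Cxcl13 stood at 239 and 205 CPM with acupuncture and 1080.4 and 2033 without (log2 -2.81 ± 0.26, adjusted p = 0.00059), and Cxcl12 at 1237 and 1399.7 against 2921 and 3309.8 (log2 -1.24 ± 0.14, adjusted p = 0.00121). Il1r2, the decoy receptor of interleukin 1, stood at 144 and 179 against 416 and 785 CPM (log2 -1.89 ± 0.26, adjusted p = 0.00404). Cck stood at 25.1 and 27.9 against 131 and 198 CPM (log2 -2.63 ± 0.20, adjusted p = 0.000226), and Ccn2, a matricellular protein induced by stretch and TGF-beta, at 60.3 and 85.1 against 219.9 and 433 CPM (log2 -2.17 ± 0.29, adjusted p = 0.0036). Every dysentery value exceeded every acupuncture value for these genes. Cyp26b1, which degrades retinoic acid, fell by 3.21, the sodium pump subunit Atp1b1 by 2.24, Chchd10, a mitochondrial protein, by 2.53 and Mmp11 by 2.19. Without dysentery replicate 2 none of the 4 passed (log2 -2.89, adjusted p = 0.0699 for Cyp26b1, log2 -1.30, adjusted p = 0.25 for Atp1b1, log2 -2.02, adjusted p = 0.237 for Chchd10 and log2 -1.11, adjusted p = 0.0947 for Mmp11). Without acupuncture replicate 1 the log2 change was -5.01 for Cyp26b1 and -4.21 for Chchd10, and without acupuncture replicate 2 it was -2.48, -1.81 and -2.84 for Cyp26b1, Chchd10 and Atp1b1. Mmp11 stood at -2.80 without dysentery replicate 1. The row AABR07060872.1, which carries no gene symbol, also fell (log2 -3.33, with -2.32 and -3.93 without dysentery replicates 1 and 2).

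Igf1 stood at 383 and 470.1 CPM against 755 and 673 (log2 -0.74 ± 0.15, adjusted p = 0.028) and Igfbp6 at 1756 and 1815 against 2782 and 3476 (log2 -0.81 ± 0.14, adjusted p = 0.0139), the 2 called among 11 tested members of the IGF axis. Neither passed without dysentery replicate 2 (log2 -0.82, adjusted p = 0.111, and log2 -0.64, adjusted p = 0.137), and Igf1 did not pass without dysentery replicate 1 (log2 -0.66, adjusted p = 0.163). Complement genes were lower in 3 of 14 members and higher in 1. They included C4b (5787 and 5759 against 9555 and 10774 CPM, log2 -0.82 ± 0.12, adjusted p = 0.00584) and its near copy C4a (log2 -1.10), whose reads the counting could have split with it. Without dysentery replicate 2 neither passed (log2 -0.73, adjusted p = 0.0593 for C4b and log2 -1.02, adjusted p = 0.108 for C4a). The other lists held few calls, which moved by 1 to 3 genes or more when a library was left out. Higher and lower calls were 1 and 1 of 25 in TGF-beta and BMP signalling, 1 and 3 of 17 in adipogenic genes, 1 and 3 of 25 in antioxidant genes, and 1 and 3 of 19 in axon guidance. Of 18 Wnt signalling genes 0 were called in edgeR and 0 higher and 0 lower in DESeq2, with 5 at an unadjusted p under 0.05. For 23 ribosomal protein genes these counts were 0, 0, 0 and 12, with a median log2 fold change of -0.28. Over all 9866 genes tested in edgeR, 1533 had an unadjusted p under 0.05, a smaller share than in either list. Txnip, a brake on glucose uptake, led the antioxidant falls (555 and 429 against 1281 and 1247 CPM, log2 -1.36 ± 0.16, adjusted p = 0.00164). Of the 4 other genes with an olfactomedin domain 1 was lower, Olfml2b (log2 -0.98, and not without dysentery replicate 1 or 2, where adjusted p was 0.0547 and 0.158). Of the 12 Pi16 list members 0 were called in edgeR and 0 in DESeq2, with 4 at an unadjusted p under 0.05, of 9 Col15a1 list members 1 higher and 1 lower, and of 10 Cxcl12 list members 1 higher and 2 lower.

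Myoc and Igfbp3, which chose the cells, stood at 1699 and 1713 and 2102 and 1229 CPM with acupuncture and at 1134 and 1766 and 1632 and 1575 CPM without. Smoc2 stood at 140.1 and 315 against 121 and 47.7 CPM and did not pass (log2 1.43 ± 0.41, adjusted p = 0.11), with dysentery replicate 1 close to acupuncture replicate 1. Stmn2, at 525 and 457 against 341 and 784 CPM (log2 -0.20 ± 0.29, adjusted p = 0.811), and Pi16, at 924 and 809 against 557 and 626 CPM (log2 0.55 ± 0.14, adjusted p = 0.0729), did not pass either. Cd34 (61.2 and 50.1 against 44.1 and 32.1 CPM) and Pdgfra (553 and 489 against 501 and 419 CPM) were not called, with adjusted p of 0.201 and 0.616.

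The largest fall among genes with at least 50 CPM in either group, that of Apod, rested on a single cell in each dysentery library. It stood at 4.93 and 11.2 CPM with acupuncture and 289.8 and 281 without (log2 -5.16 ± 0.27, adjusted p = 2.35e-05). In dysentery replicate 1, 384 of 394 Apod UMIs lay in 1 cell, and in dysentery replicate 2, 388 of 395. Only 8 and 7 cells held any Apod UMI there, against 18 and 25 in the acupuncture libraries. Without the highest cell of each library the values were log2 0.046, adjusted p = 0.978. In the cells with Smoc2 and no Pla2g2a UMI, Apod summed to 388 and 389 UMIs in dysentery replicates 1 and 2, so both of these cells are among them. Without acupuncture replicate 2 the log2 change was -5.84. Among the 15 largest rises and 10 largest falls, no gene but Apod turned direction when its highest cell was left out, and Il6 could not be computed as a ratio.

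**Figure D5:**
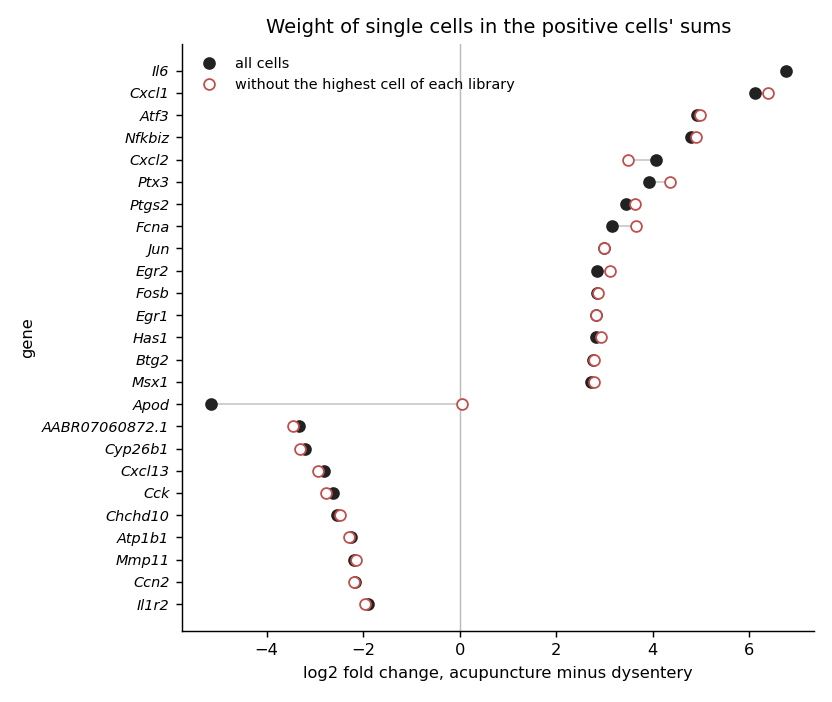
Log2 fold change of acupuncture minus dysentery in Myoc and Igfbp3 positive cells for the 15 largest rises and 10 largest falls, with all cells (filled) and with the cell holding most UMIs of that gene left out of each library (open). Apod moved from -5.16 to 0.046, and Il6 has no open point because no Il6 UMI was left in the dysentery libraries.

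Macrophage RNA moved with the group inside the double-positive cells. Of 11 macrophage markers tested 7 were higher with acupuncture and 0 lower, with a median of 1.90. Their summed level was 898 and 787 CPM with acupuncture and 524 and 404 CPM without, and in the other stromal cells 704 and 511 against 644 and 421 CPM. None of the 12 was at 0. C1qa, a complement subunit of macrophages, stood at 129 and 135 against 26.5 and 34.9 CPM (log2 2.10 ± 0.17, adjusted p = 0.000266), and the lectin Fcna at 41.5 and 69.4 against 3.68 and 8.55 CPM (log2 3.16 ± 0.39, adjusted p = 0.00273). Cells with at least 10 UMIs of these markers per 10000 made up 7.31, 4.83, 18.3 and 6.25% of the double-positive cells. Without them C1qa stood at log2 0.26, adjusted p = 0.726 and Fcna at log2 2.04, adjusted p = 0.0696. Cxcl2 stood at 69.7 and 103 against 8.83 and 1.42 CPM (log2 4.07 ± 0.42, adjusted p = 0.00102) and at log2 1.75, adjusted p = 0.142 without them. It was 5.87 and 3.28 without dysentery replicates 1 and 2, and did not pass with doublets removed (log2 1.41, adjusted p = 0.25). Fcna was 3.90 without dysentery replicate 2. After thinning to 2000 UMIs neither C1qa (log2 0.79, adjusted p = 0.34) nor Fcna (log2 1.00, adjusted p = 0.486) passed, nor did they with doublets removed (log2 1.09, adjusted p = 0.183, and log2 2.96, adjusted p = 0.0762) or with at least 2 UMIs of each rule gene (log2 0.91, adjusted p = 0.445, and log2 1.96, adjusted p = 0.332). In acupuncture replicates 1 and 2, 44.8% and 36.9% of the Cxcl2 UMIs lay in 1 cell. Without these cells 250 genes were called in all, and Il6, Cxcl1, Atf3, Ptgs2 and Cxcl13 stayed past the threshold. Of 3 red blood cell genes 2 were lower, Hba-a3 (log2 -3.54) and Hba-a2 (log2 -1.64), the latter not without dysentery replicate 2 (log2 -0.96, adjusted p = 0.433). These are near-identical copies whose reads the counting could split.

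In the other stromal cells of the same libraries, 265 of 13097 genes were called between the groups (2.02%), 203 higher (1.55%) and 62 lower (0.473%). Both acupuncture values lay above both dysentery values for 26.9% of these genes, and below for 26.1%. These sums come from the same 4 libraries, so values for the 2 kinds of cell are given side by side. Il6 stood there at 120.2 and 147 against 0.211 and 0.520 CPM, Cxcl1 at 1239.9 and 2112 against 28.3 and 87.5 and Atf3 at 822 and 958 against 45.9 and 39.8. Cxcl13 stood at 68.6 and 67.4 against 614 and 376 CPM (log2 -2.86 ± 0.25, adjusted p = 0.0114), and Ccn2 at 18.6 and 22.4 against 35.2 and 31.5 CPM (log2 -0.70 ± 0.14, adjusted p = 0.0744). The interaction of kind of cell with group asked whether a change differed between the kinds. It called 5 of 12421 genes (0.0403%), 3 higher (0.0242%) and 2 lower (0.0161%), and 674 genes had an unadjusted p under 0.05. The genes were Ccn3, Col12a1, Cxcl2, Cilp and Fabp4. With doublets removed, or with the gate at 60 UMIs per 10000, 0 of these 5 passed, and only Cilp did without the highest cells or without Smoc2-positive cells. For Il6 (adjusted p = 0.952) and the other genes a difference between the kinds was not called, which does not show that the kinds changed alike. Values for the 5 genes are given among the results for a closer look.

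Of the 76 named genes that were called between the groups, 38 stayed past the threshold without dysentery replicate 2, 56 without dysentery replicate 1, 75 without acupuncture replicate 1 and 73 of 75 without acupuncture replicate 2. No sign turned in these fits. Where a group is left with 1 library, its spread is taken to be that of the other group. After thinning to 2000 UMIs, which leaves fewer cells and UMIs, 29 of the 62 that could be tested stayed. Il6, Cxcl1, Nfkbiz, Egr1, Fosb and Btg2 were among these, and Ptgs2, Ptx3, Egr2, Cxcl3, Il10 and Apod among those not tested. Besides the losses given above, Cxcl2, Cyp26b1, Chchd10, Atp1b1, Igf1, Igfbp6, Olfml2b, Nfkbia, Col6a3, Col6a6 and Hba-a2 did not pass after thinning. With at least 2 UMIs of each rule gene 50 of 75 stayed, and Cxcl2, Apod, Igfbp6, Nfkbia, Col6a3, Col6a6 and Hba-a2 were among those that did not. With doublets removed 52 of 75 stayed, and Apod, Chchd10, Mmp11, Cxcl3, Nfkbia, Col6a3 and Hba-a2 did not. In DESeq2 64 of 76 passed, and Cyp26b1, Chchd10, Atp1b1, Mmp11, Cxcl3, Col6a3 and Col6a6 did not. Without Smoc2-positive cells 62 of 74 stayed, and C4a, C4b, Col6a3, Col6a6 and Hba-a2 did not.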

How the data were processed

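Single cells of 4 libraries were read from 10x 3' gene expression data. The authors deposited filtered matrices of UMI counts per gene and cell, made with Cell Ranger 6.0.1 per the file headers. The submitters' processing notes name STAR, mRatBN7.2 and GRCh38.p13 without giving their roles. Deposited barcode and gene name files (unit: other) supplied identities. UMIs were summed per library and kind of cell. edgeR 4.0.16 (TMM, filterByExpr with a minimum count of 10, quasi-likelihood test, two-sided, adjusted over all genes, threshold 0.05) tested each contrast, with the library as a block between kinds of cell. Share differences used an exact permutation test. CPM beside such tests are TMM-scaled and others are plain. Scripts were tested on simulated data. Sums of different libraries differed beyond sampling noise.

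Alternatives were DESeq2 1.42.0, RLE scaling, no filter, a replicate block, other rules for cells, doublet removal with scanpy 1.11.5, thinning and leaving out each library. 3 more were chosen after seeing the data. The members and gene lists were chosen with earlier results of these data known. Genes were named by a rule: past the threshold, separated in every library or group and at least 50 CPM, the 15 largest rises and 10 largest falls, and up to 4 called members of each list. Col6a1, Col14a1, Dpp4, Tppp3, Igfbp5, Wnt11, Slit3 and Sfrp1, and the genes set against Smoc2 and Pla2g2a, were named after their values were seen. Some genes that the rule picks are not reported here. Doublets were kept in the values unless stated. Of 30560 rows, 7162 have an identifier only and were not named by symbol.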

Additional observations from a re-analysis of the deposited data

Results flagged for a closer look

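By edgeR's test of the difference between the kinds of cell, 5 of 12421 genes were called as differing in the acupuncture contrast. None of the 5 calls held with doublets removed (adjusted p from 0.0968 to 0.913) or with the gate at 60 UMIs per 10000 (adjusted p from 0.0559 to 0.909). Cilp alone passed without the highest cells and without Smoc2-positive cells, and Cilp and Ccn3 after thinning to 2000 UMIs. A positive value means a change more towards acupuncture in the double-positive cells. Ccn3, a matricellular protein of the family of Ccn2, stood in the double-positive cells at 69.0 and 59.5 CPM with acupuncture and 50.2 and 59.2 without, and in the others at 38.8 and 42.02 and 74.1 and 113 CPM (interaction log2 1.43 ± 0.18, adjusted p = 0.0351). Its level in the double-positive cells thus overlapped or nearly met between the groups, and the other cells held the wider gap. Col12a1, a collagen on the surface of fibrils, stood at 98.7 and 93.3 and 81.1 and 74.5 CPM in the double-positive cells and at 29.99 and 30.8 and 53.1 and 54.5 CPM in the others (interaction log2 1.13 ± 0.14, adjusted p = 0.0351). Cilp, a matrix protein of cartilage and fibroblasts, stood at 137 and 109.8 and 229.5 and 30.6 CPM against 41.3 and 33.4 and 22.4 and 4.28 CPM (interaction log2 -1.48 ± 0.17, adjusted p = 0.0311), and the 2 dysentery libraries of the double-positive cells were far apart.

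Cxcl2 stood at 68.5 and 101 and 8.61 and 1.39 CPM in the double-positive cells and at 31.0 and 59.8 and 37.4 and 2.63 CPM in the others (interaction log2 2.92 ± 0.33, adjusted p = 0.0311). Without cells carrying macrophage RNA the difference was log2 -0.077, adjusted p = 0.993, and without dysentery replicate 1 it was log2 1.87, adjusted p = 0.566. Fabp4 stood at 7.15 and 6.96 and 7.89 and 5.57 CPM in the double-positive cells and at 103 and 91.3 and 16.8 and 10.7 CPM in the others (interaction log2 -2.76 ± 0.35, adjusted p = 0.0366), so the change lay in the other cells. With the gate at 60 UMIs per 10000 it was log2 -0.89, adjusted p = 0.909.

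Without dysentery replicate 2, Ccn3 (log2 1.25, adjusted p = 0.18), Col12a1 (log2 1.07, adjusted p = 0.16) and Fabp4 (log2 -2.68, adjusted p = 0.182) did not pass. Without acupuncture replicate 1, Ccn3 (log2 1.25, adjusted p = 0.111), Col12a1 (log2 1.06, adjusted p = 0.16), Fabp4 (log2 -2.70, adjusted p = 0.0534) and Cilp (log2 -1.47, adjusted p = 0.0534) did not, and without dysentery replicate 1 neither did Fabp4 (log2 -2.83, adjusted p = 0.0527) and Cilp (log2 -1.10, adjusted p = 0.0874). The cause of these losses was not tested.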

How the results depend on the processing

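The difference in share kept its direction in every alternative, from 2.66 to 6.38 percentage points, and from 3.07 to 4.78 with 1 library left out. Between the kinds of cell 1833 genes were called, and 1094 with thinning to 2000 UMIs. Between the groups within the double-positive cells 295 were called, against 194 with DESeq2, 779 without the filter on low counts, 163 with at least 2 UMIs of each gene, 59 after thinning, 178 with doublets removed, and 94 to 709 with 1 library left out. Within the other cells 265 were called, against 827 with DESeq2, 907 without the filter, and 76 to 286 with 1 library left out. The difference between kinds called 5 genes, against 10 with DESeq2, 136 without the filter, 31 with at least 2 UMIs, 40 after thinning, 0 with the gate at 60 UMIs per 10000 (664 at an unadjusted p under 0.05), 0 with doublets removed (652 so), 2 without the highest cells, 1 without Smoc2-positive cells, and 5 to 56 with 1 library left out. Apod turned from -5.16 to 0.046 between groups without the highest cells, and between kinds to -1.11 there and to -1.12 without Smoc2-positive cells. The uncalled difference between kinds in Ptgs2, 0.30, turned to -0.29 with at least 2 UMIs, -0.32 after thinning, -0.12 without acupuncture replicate 2 and -0.023 without dysentery replicate 2, and ranged from -0.12 to 0.66 with 1 library left out. That of Cxcl2 turned to -0.077 without cells carrying macrophage RNA. The cause was not tested, except that thinning leaves fewer genes and cells.

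Replicate numbers are shared by the groups only as labels. Deviations of same-numbered libraries correlated at r = 0.0407 over genes in the double-positive and 0.182 in the other cells. A replicate block moved the calls from 295 to 660 and from 265 to 405, and each of the 76 named called genes stayed called. The 2 libraries per group and the few cells of the dysentery libraries limit the precision, and intervals cover counting error only. The alternatives on highest cells, macrophage RNA and Smoc2 were chosen after seeing the data.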

Other observations

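Further called genes lay in lists that the report only counts. Gdf15, a stress-induced cytokine of the TGF-beta superfamily, was held as 223 UMIs in the double-positive cells of the acupuncture libraries and 2 in those of the dysentery libraries, a ratio of 39.4 with a 95% counting interval of 10.8 to 327. Only 31 and 28 cells of acupuncture replicates 1 and 2 held Gdf15, with 39 of 115 and 33 of 108 UMIs in 1 cell. Fmo2 stood at 69.4 and 99.4 CPM with acupuncture and 25.0 and 20.7 without (log2 1.88 ± 0.23, adjusted p = 0.00259), and Gpx3, a secreted glutathione peroxidase, at 2636 and 3001 against 5260.1 and 6479 CPM (log2 -1.06 ± 0.14, adjusted p = 0.00399). For these genes the groups did not overlap.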
